A study of Homo sapiens with 8 samples.

Results

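The 39 HOX genes were examined for H3K4me1, the single methylation of histone H3 at lysine 4, a mark of enhancers and of the surroundings of active genes. They were taken as the protein-coding RefSeq symbols made of HOX, a letter A to D and digits, and make up 39 of the 19974 protein-coding genes of chromosomes 1 to 22 and X. They lie in 4 clusters, with 11 genes in HOXA, 10 in HOXB, 9 in HOXC and 9 in HOXD. The mark was mapped by ChIP-seq, the sequencing of immunoprecipitated chromatin, in MDA-MB-231, an established triple-negative breast cancer cell line, in cells labelled control and in cells labelled ARID1A knockout. ARID1A is a subunit of SWI/SNF, a complex that moves nucleosomes. Each genotype had 2 immunoprecipitated and 2 input samples and is represented by 1 deposited list of peaks, immunoprecipitate over input, in hg38 coordinates. Peak names in each list carry the number 1, and whether a list was made from both replicates or from 1 is not stated. How ARID1A was knocked out and whether the cells came from 1 clone or several is not stated.

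HOX proteins are homeodomain transcription factors that give cells their position along the body axis. Within a cluster the genes stand in the order in which they act in the embryo, from anterior (low paralog numbers) to posterior (high numbers). Silent HOX clusters are a textbook target of Polycomb repression, and SWI/SNF complexes are known to oppose Polycomb. Cells kept in culture often hold part of the HOX code of their tissue, and several HOX genes are known to be misexpressed in breast cancer.

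The control list held 82994 peaks on these chromosomes and the knockout list 73600, with 183206879 and 176292812 covered bases, a ratio of knockout to control of 0.96. The depth behind a peak is unknown, and with 1 list per genotype no difference below has a replicate check or a p-value. The lists also differ in the shortest peak, 312 bases in the control and 361 in the knockout list. Of 6 mesenchymal marker genes of the line (among them VIM, CD44 and ZEB1), all 6 carried peaks in both lists, with a median of 19952.5 control and 17990 knockout bases. All 7 epithelial or luminal markers (8634 and 7286) and all 3 blood cell markers (1730 and 2616) also carried peaks. Presence of peaks therefore does not check the cell label, and a peak list does not measure expression.

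The HOX clusters were poor in H3K4me1 in both lists. Each cluster was taken from its first to its last HOX record with 5000 bases on either side. Together the 4 clusters spanned 567.9 kb, of which 28938 bases (5.1%) lay in 23 control peaks and 21246 (3.74%) in 15 knockout peaks. The 500 kb on either side of the clusters were covered to 10.76% in the control and 9.22% in the knockout list, 2.11 and 2.46 times the share within the clusters. The joined windows of all protein-coding genes (record plus 5000 bases on either side) were covered to 9.43% and 8.85%. Between the first and last peak of every chromosome the shares were 6.22% and 5.98%. In the control list HOXC (6.41%) and HOXD (6.57%) lay slightly above the share of all chromosomes. Together the clusters thus held less of the mark per base than their surroundings and than gene windows in general, although no test was possible.

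**Figure D1:**
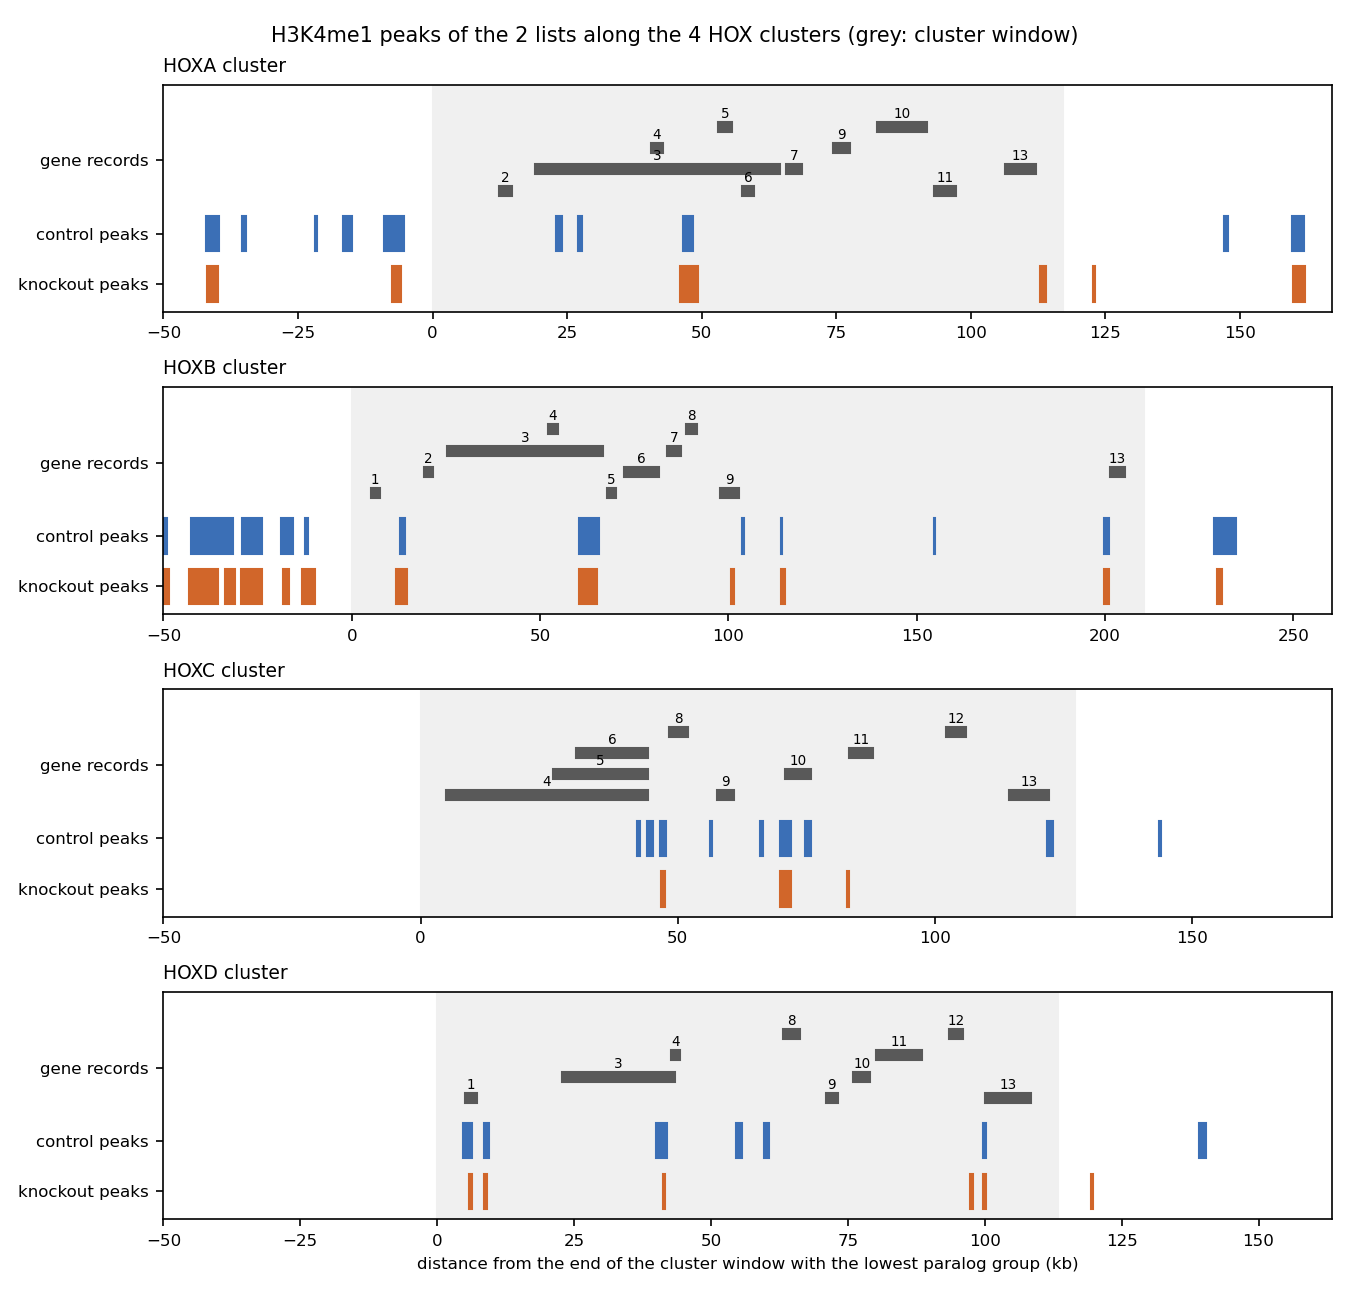
Peaks of the control list (blue) and the knockout list (orange) along the 4 HOX clusters and 50 kb on either side, by distance in kb from the end with the lowest paralog group; grey bars are the records of the genes reported by name, with their paralog number and the grey field is the cluster window. The 23 control and 15 knockout peaks stand as isolated blocks, and HOXA from HOXA6 to HOXA11 holds none in either list.

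The contrast with the flanks held for HOXA, HOXB and HOXC but depended on the list for HOXD. HOXA was covered to 3.39% in the control and 3.75% in the knockout list, and its 2 flanks together to 8.34% and 7.55%. HOXB had 4.45% and 5.06% within the cluster, against 14.94% and 11.71% in the flanks. HOXC had 6.41% and 2.65%, against 12.91% and 11.92%. In HOXD the control share within the cluster, 6.57%, was close to that of its flanks, 6.83%, and the knockout share was 2.51% against 5.69%. The HOXD flanks were unlike each other. The posterior side, beyond HOXD13, was covered to 2.46% and 1.70%, and the anterior side, beyond HOXD1, to 11.20% and 9.68%.

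**Figure D2:**
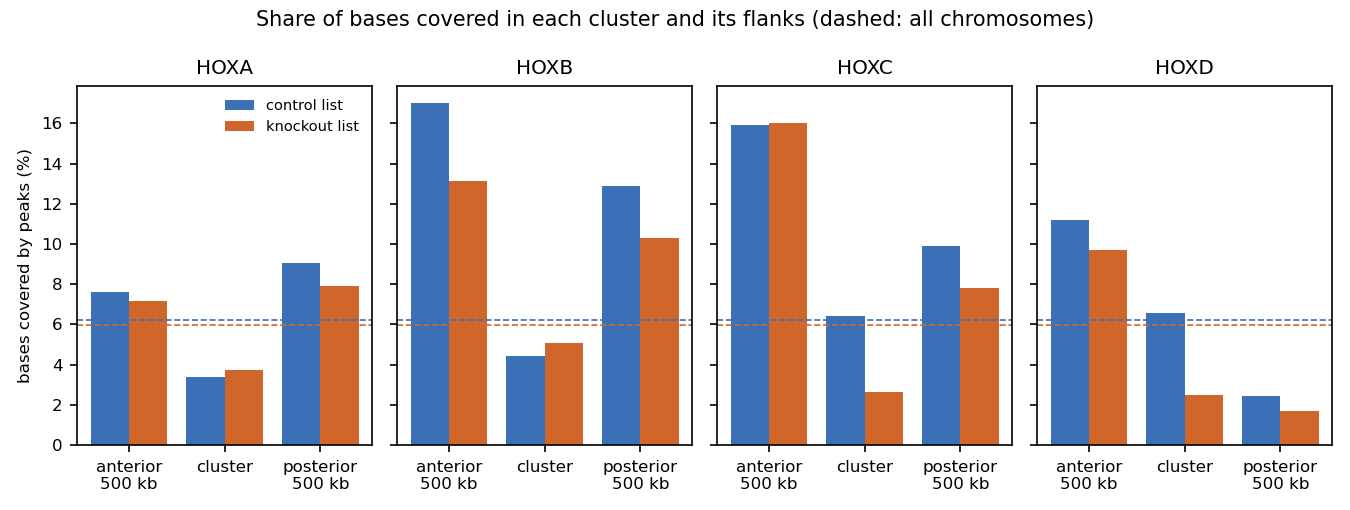
Percent of bases covered by peaks in each cluster window and in the 500 kb on its anterior and posterior side, for the control list (blue) and the knockout list (orange); dashed lines give the share between the first and last peak of all chromosomes. In the control list HOXA at 3.39% and HOXB at 4.45% lie under both of their flanks, and the posterior HOXD flank at 2.46% is the lowest flank.

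Over the 4 clusters together, strong peaks made up a smaller share of peaks than in the flanks, with HOXB close to its flanks. The authors' −log10 q was used here to rank peaks within a list and, with a cutoff of 5, to mark strong peaks. That cutoff need not be equally strict in the 2 lists. The −log10 q was at least 5 for 3 of the 23 control peaks (13%) and 2 of the 15 knockout peaks (13.3%) of the clusters. In the flanks it reached 5 for 57 of 198 control peaks (28.8%) and 66 of 161 knockout peaks (41.0%). The whole lists had 28.8% and 37.5% of peaks at that level. HOXB held 4 of these 5 cluster peaks, with 33.3% of its control and 40.0% of its knockout peaks at that level, against 39% and 42% in its flanks. The strongest peak near HOXB lay 31552 bases outside the window in the control list (chromosome 17, 48480779 to 48491974, −log10 q 17.0) and 35507 bases outside in the knockout list (48480349 to 48488019, 20.7). It lies between HOXB1 and SKAP1, an adaptor gene of immune cells that is the next gene on the list of neighbours.

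Peaks of the clusters were narrower than usual. Their median width was 1109 bases in the control and 776 in the knockout list, against 1386 and 1587 in the whole lists. Median −log10 q was 2.83 and 3.21, against 3.18 and 3.77. Of the 23 control peaks 12 touched a HOX record and 11 lay between records. Of the 15 knockout peaks 7 touched a record, 7 lay between records and 1 lay beyond the last record. Bases inside records were covered to 6.09% and 4.25%, and bases between them to 4.20% and 3.28%.

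**Figure D3:**
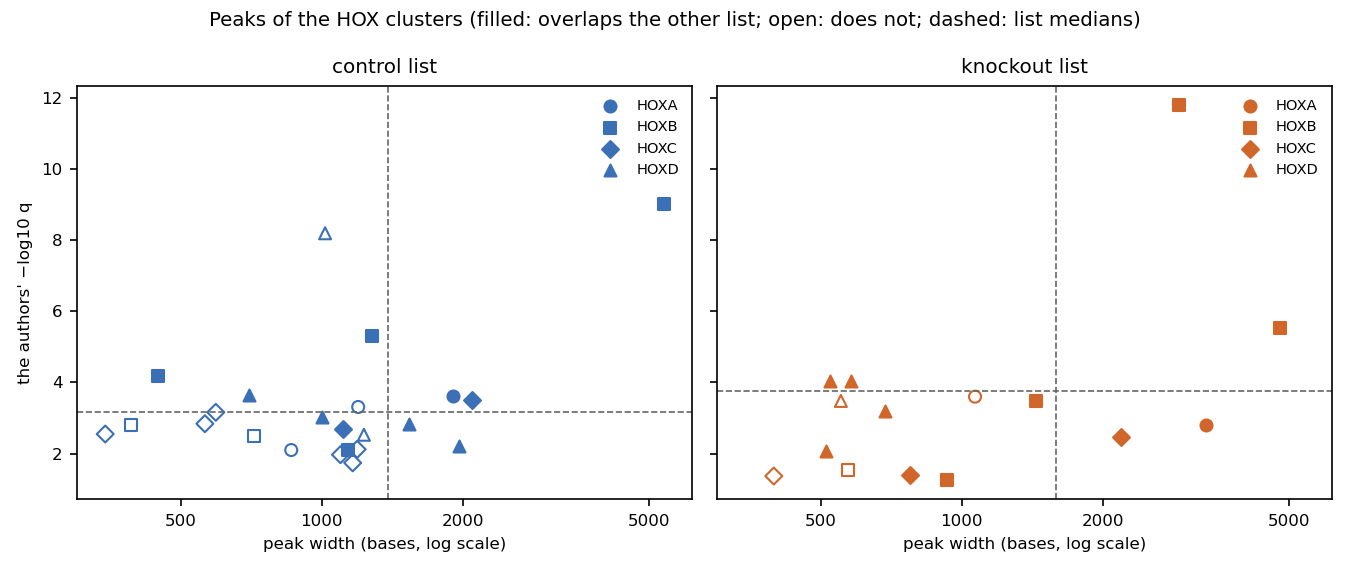
Width in bases (log scale) and the authors' −log10 q of the 23 control and 15 knockout peaks of the clusters, by cluster (marker shape); filled markers overlap a peak of the other list, open markers do not, and dashed lines are the medians of the whole list. Most points lie left of the median width, and the highest are HOXB peaks at 9.01 in the control and 11.8 in the knockout list.

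Gene by gene, covered bases were counted over the record plus 5000 bases on either side. Of the 39 windows 36 overlapped another HOX window, so neighbouring genes share peaks and are not independent. No peak of either list lay at 15 of the 39 HOX genes (38.46%), against 15.8% of all protein-coding genes. Most HOX records are short, with a median of 3785 bases, and short windows hold fewer peaks. Among the 5658 protein-coding genes with a record of 10 kb or less, 33.1% had no peak, and among the 33 such HOX genes 15 had none (45.45%). Only control peaks lay at 3 HOX genes, HOXC9, HOXC13 and HOXD8, and only knockout peaks at 3, HOXA13, HOXB1 and HOXC11. The peak at HOXB1 overlaps a control peak that begins just outside the HOXB1 window. Among all protein-coding genes 4.36% had only control and 2.26% only knockout peaks, and among those of 10 kb or less 5.43% and 2.69%. The median HOX window was covered to 2.61% in the control and 1.67% in the knockout list, against 9.39% and 8.73% over all protein-coding genes.

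A gene was called when its covered bases in the lists lay 1000 or more apart. Covered bases were lower in the knockout list at 10 of the 39 HOX genes (25.6%), near the 30.0% of all protein-coding genes, and higher at 1 (2.6%), against 20.2% of all. Among genes with a record of 10 kb or less the calls were 6 lower and 1 higher of 33 HOX genes, and 16.2% lower and 12.7% higher of all such genes. The share of lower HOX genes was near that of other genes, and the share of higher ones was smaller than theirs. The median difference was 0 bases over the HOX genes and 0 over all genes. All 10 lower genes lay in 2 clusters, 6 in HOXC and 4 in HOXD. They rested on 12 distinct control and 5 distinct knockout peaks.

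These counts moved with the rule, and the percentages in brackets here are the shares of all protein-coding genes, not of HOX genes. Over the records alone 1 HOX gene was lower (24.5% of all genes) and 0 higher (14.9%), and with 10 kb on either side 11 were lower (33.5%) and 5 higher (21.4%). When peaks had to reach a −log10 q of 5, 1 was lower (17.7%) and 0 higher (26.7%), and among the 20000 strongest peaks of each list 3 were lower (19.6%) and 0 higher (20.3%). By both stricter rules only 5 of the 39 HOX genes had any peak, so few could be called and these counts say little. With the same merging distance and shortest peak for both lists 10 were lower (32.0%) and 1 higher (18.4%), and with a call at 500 bases 13 were lower (38.8%) and 5 higher (27.0%).

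**Figure D4:**
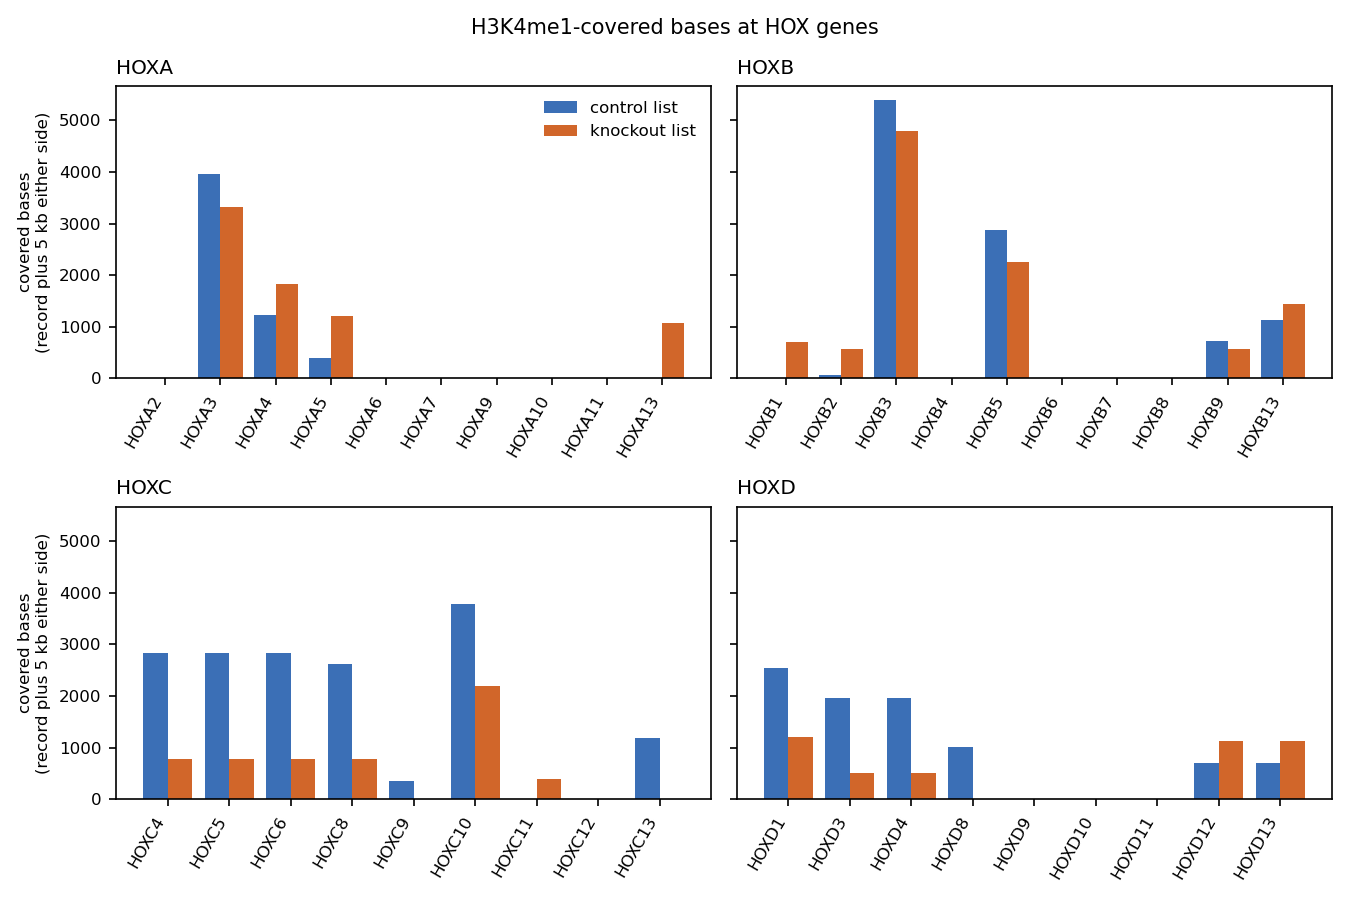
Covered bases at the HOX genes reported by name (record plus 5 kb on either side) in the control list (blue) and the knockout list (orange), 1 bar per list without replicates. HOXB3 stands highest with 5396 and 4787 bases, the blue bars exceed the orange ones from HOXC4 to HOXC8, and genes without bars have no peak in either list.

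By paralog role, the posterior genes had the lowest medians of covered bases. The shares without a peak were 43.75% of posterior, 40% of central and 25% of anterior genes. Posterior members (groups 9 to 13) had no peak at 7 of 16 genes and a median of 0 covered bases in both lists. Central members (groups 4 to 8) had none at 6 of 15, with medians of 1016 control and 511 knockout bases. Anterior members (groups 1 to 3) had none at 2 of 8, with medians of 1018.5 and 636 bases. Lower in the knockout list were 2 anterior (25%), 6 central (40%) and 2 posterior genes (12.5%), against 30.0% of all protein-coding genes. HOXD3 and HOXD4 were called from the same peak, and HOXC4, HOXC5, HOXC6 and HOXC8 share peaks. Neither these counts nor the medians therefore rest on independent genes.

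HOXC differed most between the lists in peak number (chromosome 12, 53933831 to 54061030, 127.2 kb). In the control list 8 peaks covered 8156 bases and in the knockout list 3 peaks covered 3366, a ratio of 0.41. The anterior flank had a ratio of 1.01, the posterior flank 0.79 and all of chromosome 12 0.97. The input background implied by the peaks of the cluster and its flanks was 3.27 in the control and 4.09 in the knockout list. This change was 1.0 times the genome-wide one, but most of these peaks lie in the flanks. Over the 8 control and 3 knockout peaks of the cluster alone it was 3.02 and 4.69, a larger change from few peaks. Its part in the difference of covered bases was not tested. Of the 8 control peaks 6 had no knockout counterpart, and these 6 held 4949 bases. All of them were weak, since the highest −log10 q of the 6 was 3.16 and that of all 8 was 3.52. With only peaks at a −log10 q of at least 5, HOXC had 0 covered bases in both lists, so the difference rests on peaks under that level.

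The 6 lower HOXC genes sat around 3 places. The first was the shared start of the HOXC4, HOXC5 and HOXC6 records, genes of the central group that act in the cervical and upper thoracic trunk. Each of the 3 had 2835 control and 776 knockout bases, and these are the same peaks counted at 3 overlapping records. The neighbour HOXC8, which patterns the thoracic skeleton, had 2617 and 776 bases and shares most of them. Control peaks without a knockout counterpart lay at 54015938 to 54017101 (−log10 q 1.74), 54018394 to 54018955 (2.84) and 54004441 to 54004784 (2.55). The shared peak of this place, between HOXC8 and HOXC6, was 1109 bases wide in the control list (54013328 to 54014436, 2.70) and 776 in the knockout list (54013457 to 54014232, 1.41).

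The second place was HOXC10, a posterior gene of the lumbar trunk and hindlimb, with 3787 control and 2194 knockout bases. A peak over its 3′ part was shared by both lists, at 53989093 to 53991190 in the control list (2098 bases, −log10 q 3.52) and 53988958 to 53991151 in the knockout list (2194 bases, 2.48). It is the widest and strongest HOXC peak of each list. Control peaks at 53985162 to 53986257 (1.97) and 53994490 to 53995082 (3.16) had no counterpart. The third place was HOXC13, known for its part in hair and nail formation, with 1190 control bases in 1 peak (53938028 to 53939217, 2.12) and 0 knockout bases. In the other direction HOXC11 had 0 control and 396 knockout bases, in a peak of −log10 q 1.37 (53977684 to 53978079). HOXC9 had 344 and 0 bases, and HOXC12 had no peak.

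Promoter sequences were at hand for 26 start sites of 20 of the 39 genes, of which 16 are HOXA, 8 HOXD, 1 HOXB and 1 HOXC sites, so these counts say little of HOXB and HOXC. Of the 26, the start that HOXC4 and HOXC5 share in RefSeq lay inside a control peak, and 0 lay inside a knockout peak. Among genes without an entry, the HOXC13 record begins at 53938831 and the HOXC6 record at 54016888, each inside a control peak named above. The HOXC10 record begins at 53985146, just before the control peak at 53985162. For all 22012 start sites of protein-coding genes, 15.06% lay inside a control and 24.10% inside a knockout peak. Within 1000 bases of the start a peak was found at 2 of 26 HOX sites in each list, against 52.43% and 54.61% of all. The median distance from a HOX start site to the nearest peak was 6901.5 bases in the control and 12626.5 in the knockout list, against 938 and 871 for all start sites. Of the 26 sites 7 are HOXA3 starts. The 250 bases before 3 of these starts are shown, because each lies in or within 1000 bases of a peak. They were read on the gene's strand from RefSeq (GRCh38.p14), and capitals mark CpG dinucleotides.
HOXC4 and HOXC5, chr12:54016638-54016887, plus strand: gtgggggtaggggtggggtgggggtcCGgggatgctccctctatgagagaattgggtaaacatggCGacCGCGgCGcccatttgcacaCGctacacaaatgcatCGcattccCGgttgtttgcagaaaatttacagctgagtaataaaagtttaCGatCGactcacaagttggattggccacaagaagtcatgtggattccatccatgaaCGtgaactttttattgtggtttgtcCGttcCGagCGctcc
HOXD1, chr2:176188418-176188667, plus strand: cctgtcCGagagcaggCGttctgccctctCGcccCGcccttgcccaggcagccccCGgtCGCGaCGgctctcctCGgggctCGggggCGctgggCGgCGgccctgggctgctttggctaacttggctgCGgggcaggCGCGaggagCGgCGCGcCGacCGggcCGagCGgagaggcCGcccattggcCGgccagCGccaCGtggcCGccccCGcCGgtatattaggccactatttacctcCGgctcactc
HOXA13, chr7:27200092-27200341, minus strand: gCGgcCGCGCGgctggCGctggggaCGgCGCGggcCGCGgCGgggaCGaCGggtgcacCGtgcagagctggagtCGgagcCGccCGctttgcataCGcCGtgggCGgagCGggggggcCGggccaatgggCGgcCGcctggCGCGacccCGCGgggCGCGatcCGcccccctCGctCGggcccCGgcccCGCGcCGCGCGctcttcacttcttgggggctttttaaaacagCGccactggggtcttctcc
The HOXC4 and HOXC5 window lay whole inside the control peak (250 of its 250 bases) and 2656 bases from the nearest knockout peak at its start. It held 14 CpG dinucleotides, the HOXD1 window 31 and the HOXA13 window 40. The median over the 26 HOX windows was 19.5, and over 34789 promoters of the table it was 11. The 8 letters TGATTNAT, a form of the joint PBX and HOX site, were searched on both strands and occur in 2 of the 26 HOX windows (HOXA2 and HOXD11) and in 2.49% of all windows. The HOXA2 start lay 8211 bases from the nearest control and 20532 from the nearest knockout peak, and the HOXD11 start 10981 and 8667. The AP-1 letters TGANTCA occur in 0 of the 26 and in 6.55% of all.

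HOXD also had fewer covered bases in the knockout list, mainly through narrower peaks (chromosome 2, 176082487 to 176195907, 113.4 kb). In the control list 6 peaks covered 7451 bases and in the knockout list 5 peaks covered 2847, a ratio of 0.38. The anterior flank had a ratio of 0.86, the posterior flank 0.69 and chromosome 2 0.99. The implied input background with the flanks was 4.30 and 5.30, and this change was 0.99 times the genome-wide one. Over the 6 control and 5 knockout peaks of the cluster alone it was 3.91 and 5.77, a larger change from few peaks. Its part in the narrower knockout peaks was not tested. At 4 places both lists had a peak, and these were 5205 bases wide in sum in the control and 2296 in the knockout list. The remaining control bases, 2246 in 2 peaks, had no counterpart.

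At the anterior end, HOXD1 had 2540 control and 1207 knockout bases in 2 peaks on either side of its start. The one before the record spanned 1002 bases in the control list (176186413 to 176187414, −log10 q 3.04) and 523 in the knockout list (176186855 to 176187377, 4.03). The one that starts within it spanned 1538 bases (176189642 to 176191179, 2.83) and 684 (176189466 to 176190149, 3.21), the widest HOXD peak of the knockout list. Both knockout peaks were narrower. By rank within its list the peak before the record exceeded 47.8% of control and 52.9% of knockout peaks, and the other 44.2% and 42.7%. The start site itself lay 974 bases from the nearest control and 798 from the nearest knockout peak.

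HOXD3 and HOXD4, which pattern the neck, each had 1967 control and 511 knockout bases from the same peak inside the HOXD3 record (176153942 to 176155908, −log10 q 2.2, and 176154241 to 176154751, 2.07). HOXD8 had 1016 control bases and 0 knockout bases. They came from a peak between HOXD8 and HOXD4 (176135251 to 176136266) whose −log10 q of 8.19 exceeded that of 88.5% of control peaks. It is the strongest peak of the clusters without a counterpart, and the nearest knockout peak was 17975 bases away. A second control peak 7467 bases from the HOXD8 record (176140162 to 176141391, 2.53) also had no counterpart. At a −log10 q of at least 5 in both lists, the HOXD8 peak was all that was left of HOXD, with 1016 control and 0 knockout bases.

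The posterior HOXD genes, which shape the limb and digits, gave small differences the other way. HOXD12 and HOXD13 each had 698 control and 1129 knockout bases, under the 1000 bases of a call. A peak at the 3′ end of HOXD13 was found in both lists (176095602 to 176096299, −log10 q 3.64, and 176095706 to 176096283, 4.04). The knockout list had a further peak between the 2 genes (176098063 to 176098613, 3.48). HOXD9, HOXD10 and HOXD11 had no peak, within an uncovered stretch of 38951 bases in the control and 55627 in the knockout list.

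HOXA had the lowest share of covered bases in the control list and nearly equal totals in the lists (chromosome 7, 27087993 to 27205091, 117.1 kb). In the control list 3 peaks covered 3968 bases and in the knockout list 2 peaks covered 4393, a ratio of 1.11. Over the span of the records alone, without 5000 bases at the ends, the order was the other way, with 3968 and 3326. The implied input background with the flanks was 2.79 and 3.91, a change 1.12 times the genome-wide one. Over the few peaks of the cluster alone it was 2.5 and 3.37. All control peaks lay within HOXA3, a long record with many start sites, which patterns the pharyngeal arches. HOXA3 had 3968 control and 3326 knockout bases. Only the peak before HOXA4 was shared, 1912 bases wide in the control list (27134539 to 27136450, −log10 q 3.62) and 3326 in the knockout list (27133924 to 27137249, 2.80). The control peaks at 27110894 to 27112089 (3.31) and 27114939 to 27115798 (2.10) had no counterpart. HOXA4 had 1219 control and 1834 knockout bases and HOXA5, a gene often silenced in breast cancer, had 399 and 1198, both from the shared peak.

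HOXA13, which acts in the distal limb and the hindgut, was the only HOX gene called higher in the knockout list, with 0 control and 1067 knockout bases. They form 1 peak 790 bases before its start (27200881 to 27201947, −log10 q 3.60), and the nearest control peak was 33132 bases away. The difference exceeds the 1000 bases of a call by little. At a −log10 q of at least 5 no HOXA peak was left in either list. HOXA2, HOXA6, HOXA7, HOXA9, HOXA10 and HOXA11 had no peak in either list. In the control list 68641 bases up to the posterior end of the window held no peak, and in the knockout list 63631 bases up to the HOXA13 peak held none. That stretch holds 7 HOX records, from HOXA5 to HOXA13, among them HOXA9 of blood progenitors and HOXA10 and HOXA11 of the uterus.

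HOXB was the cluster in which the lists were most alike (chromosome 17, 48523526 to 48733750, 210.2 kb). In the control list 6 peaks covered 9363 bases and in the knockout list 5 peaks covered 10640, a ratio of 1.14, with 0.77 and 0.80 in the flanks and 0.88 over chromosome 17. Bases covered in both lists made up 61.09% of those covered in either, against 29.65% in HOXA, 32.63% in HOXC, 25.92% in HOXD and 54.83% over all chromosomes. The implied input background with the flanks changed 1.0 times as much as genome-wide. Over the few peaks of the cluster alone it was 4.86 in the control and 6.18 in the knockout list. Among the 20000 strongest peaks of each list 5396 control and 2915 knockout bases of HOXB were left, but in different peaks. They were the control peak inside HOXB3 and the knockout peak between HOXB1 and HOXB2. The knockout HOXB3 peak (5.52) lay under the lowest −log10 q kept in its list, 6.32. The control peak between HOXB1 and HOXB2 (5.30) lay under that of its list, 5.6.

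Both strong HOXB peaks were shared. The widest peak of the clusters lay inside HOXB3, an anterior gene of the hindbrain, with 5396 bases in the control list (48583732 to 48589127, −log10 q 9.01) and 4787 in the knockout list (48583724 to 48588510, 5.52). HOXB3 accordingly had 5396 and 4787 covered bases, the most of any HOX gene, and the adjoining HOXB5 had 2871 and 2254. A peak between HOXB1 and HOXB2 spanned 1278 bases in the control list (48536447 to 48537724, 5.30) and 2915 in the knockout list (48535311 to 48538225, 11.8). In the knockout list its −log10 q exceeded that of 93.6% of peaks, the highest rank of a HOX peak in either list. HOXB1 had 0 and 701 bases from it and HOXB2 had 70 and 571.

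Around HOXB9, a gene of the mammary gland and thorax, weak peaks differed in place. The control list had 1 of 716 bases just outside the record (48627002 to 48627717, −log10 q 2.49) and the knockout list 1 of 571 bases inside it (48624302 to 48624872, 1.54), 2130 bases apart. HOXB13, a prostate gene that stands apart from the rest of the cluster, had 1136 control and 1438 knockout bases from a peak at its 3′ side (48723291 to 48724426, 2.09, and 48723129 to 48724566, 3.49). A control peak of 390 bases in the gap before HOXB13 (48678050 to 48678439, 2.80) had no counterpart. HOXB4, HOXB6, HOXB7 and HOXB8 had no peak in either list.

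Over the 4 clusters, 11 of the 23 control peaks overlapped a knockout peak by at least 1 base (47.8%, 95% exact binomial interval 26.8 to 69.4). Of all control peaks 71.8% did. In the knockout list 11 of 15 peaks overlapped a control peak (73.3%, 44.9 to 92.2), against 78.7% of all. The control share was under that of the whole list, which lay just above its interval, and the knockout interval included the share of its list. Only counting error over peaks enters these intervals. They take neighbouring peaks of 1 list as independent and do not measure spread between replicates. The cluster peaks were weaker than the list medians given above, and the part of peak strength in the lower share was not tested.

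The clusters also hold microRNA genes of the miR-10 and miR-196 families, which are known to target HOX messages. The mature forms below were read from RefSeq (GRCh38.p14), and capitals mark the seed, bases 2 to 8, which miR-196a and miR-196b share.
hsa-miR-196a-5p: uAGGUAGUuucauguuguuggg
hsa-miR-196b-5p: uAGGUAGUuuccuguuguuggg
hsa-miR-10a-5p: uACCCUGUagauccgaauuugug
The 3 loci with the miR-196 seed differed in their surroundings. MIR196A2, next to HOXC10, lay 548 bases from the shared HOXC10 peak in the control and 587 in the knockout list, with 2691 and 2194 covered bases within 5000 bases on either side. MIR196A1, posterior to HOXB9, had 367 and 85 bases. MIR196B, between HOXA9 and HOXA10, had 0 in both, with the nearest peak 33030 and 31318 bases away. MIR10A, by HOXB4, had 1216 and 1224 bases from the flank of the HOXB3 peak, and its homologue MIR10B, by HOXD4, had 1471 and 511.

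Antisense and intergenic transcripts of the clusters lie among the HOX genes, and their windows often hold the same peaks. Such shared peaks cannot be assigned to one or the other. Not all peaks are shared, and the HOXD-AS2 window also holds a control peak of 1230 bases that lies in no HOX gene window. Of 16 such transcripts 6 had no peak (37.5%), 3 were at least 1000 bases lower in the knockout list (18.8%) and 1 higher (6.2%). Protein-coding genes of 10 kb or less had 33.1%, 16.2% and 12.7%. The higher one was HOTTIP, a posterior HOXA transcript that starts next to HOXA13, with 0 control and 1481 knockout bases in 2 peaks. The lower ones were HOXD-AS2 (2246 and 0), HAGLR (2540 and 1207) and HOXC13-AS (1190 and 0). HOTAIR, a HOXC transcript known from metastatic breast cancer, had 0 control and 396 knockout bases.

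Other genes of HOX biology were better covered than the HOX genes. All 10 cofactor genes (PBX, MEIS, PKNOX and TGIF1), whose homeodomain products bind DNA together with HOX proteins or compete for their sites, had peaks in both lists. Of these 8 were lower in the knockout list (80%, against 30.0% of all protein-coding genes) and 2 higher (20%, against 20.2%), with a median difference of -1585.5 bases. PBX3 had 34248 control and 23811 knockout bases, and PBX2 had 10595 and 8276. TGIF1 (8902 and 10599) and MEIS1 (12201 and 13762) went the other way. Cofactor records are long, with a median of 99057.5 bases, and long windows more easily differ by 1000 bases.

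Among 25 chromatin regulators of HOX genes, 13 were lower in the knockout list (52%, against 30.0% of all protein-coding genes) and 6 higher (24%, against 20.2%), with a median difference of -1432 bases. Their records are shorter than those of the cofactors, with a median of 34588 bases, against 24170.5 over all protein-coding genes. The largest deficits were at KMT2C, an H3K4 methyltransferase gene (41926 control and 29361 knockout bases), EZH2, the H3K27 methyltransferase gene of Polycomb (24740 and 15020), and CBX8, a Polycomb reader gene (6462 and 1268). The largest excesses were at EZH1, the homologue of EZH2 (2159 and 7541), and RNF2, a Polycomb ubiquitin ligase gene (4289 and 8132). Of the 15 neighbours of the clusters 5 were lower (33.3%) and 4 higher (26.7%), near the shares of all genes, and none lacked a peak in both lists. TTLL6 (7235 and 3523), SKAP1 (23706 and 20434) and MTX2 (17501 and 14294) had the largest deficits, and TAX1BP1 (10045 and 13691), CALCOCO1 (1034 and 3282) and HIBADH (17652 and 19868) the largest excesses.

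Homeobox genes outside the clusters were also examined. Of 36 such genes 14 had no peak in either list (38.89%), against 15.8% of all protein-coding genes and 33.1% of those of 10 kb or less. In the knockout list 9 were lower (25%) and 3 higher (8.3%), against 30.0% and 20.2% of all. Their median covered share was 5.61% in the control and 2.76% in the knockout list. DLX4 had 5650 control and 440 knockout bases, IRX3 had 3867 and 1371 and GSX2 had 1933 and 0. MEOX1 (3860 and 7032), OTX1 (1250 and 2919) and MSX2 (543 and 1878) went the other way.

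**Figure D5:**
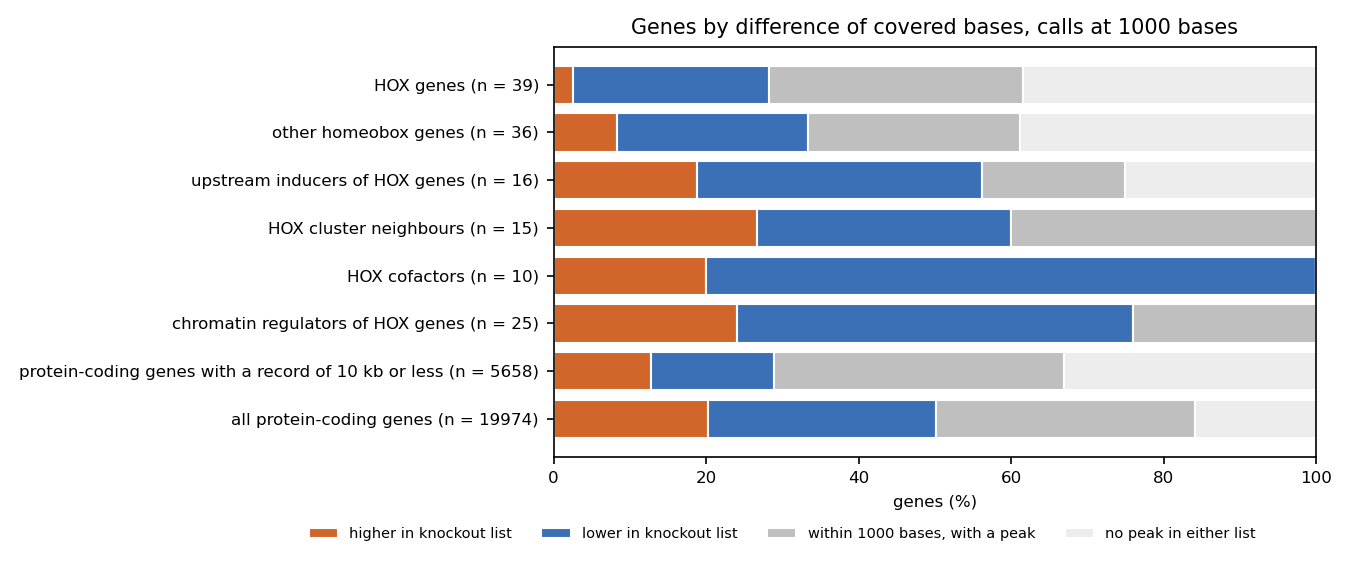
Percent of genes with at least 1000 more (orange) or fewer (blue) covered bases in the knockout list, with a smaller difference (grey) or with no peak in either list (light), for the HOX genes, related gene lists and all protein-coding genes. HOX genes and other homeobox genes lack peaks at 38.46% and 38.89% of members, and the HOX bar has the smallest orange part, 1 of 39.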

How the data were processed

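Per the labels, the samples were 2 H3K4me1 immunoprecipitates and 2 inputs for each of control and ARID1A knockout MDA-MB-231 cells, from chromatin digested with micrococcal nuclease. The protocol text names the antibody as H3K4me3, and the antibody label and titles as H3K4me1, which this text follows. The submitters' processing notes list Bowtie2 2.3.5.1, MACS2 2.2.6 and the build hg38. Settings, duplicate handling and the use of replicates are not stated there. All peak names begin with a-1 in the control and b-1 in the knockout list, and whether a list rests on both replicates or on 1 is unknown. Per the file headers, the authors deposited for each peak its position, pileup (a signal of stacked fragments), fold enrichment, and −log10 of p and q values. The −log10 p column was left out.

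Covered bases and peaks were counted with Python 3.11.15, numpy 2.4.6 and pandas 2.3.3, on code tested on simulated data. Only chromosomes 1 to 22 and X entered. Gene records came from the RefSeq table of GRCh38.p14, and start sites from its promoter table, which gave no entry for 19 HOX genes, among them HOXA5, HOXB2 to HOXB9, HOXB13, HOXC6, HOXC8 to HOXC13 and HOXD9. The input background behind a peak was taken as (pileup + 1) / fold − 1, assuming the usual MACS2 pseudocount of 1. All 39 HOX genes enter the counts. A few genes of the lists are not reported by name here. Members of other lists were named by the largest differences of at least 1000 bases in each direction. The HOX genes and the lists were chosen with earlier results of these data known. The comparison with records of 10 kb or less, and the strongest flank peaks, were chosen after seeing the data. No replicate could be left out, because each list is 1 call.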

Additional observations from a re-analysis of the deposited data

How the results depend on the processing

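No paired analysis was possible because each genotype is represented by 1 peak list that carries no replicate number, and no replicate could be left out for the same reason. The number of HOX genes called higher in the knockout list, 1 as reported, was 0 over the records alone, 5 with 10 kb on either side, 0 among peaks at a −log10 q of at least 5, 0 among the 20000 strongest peaks of each list and 5 with a call at 500 bases. The number lower, 10 as reported, was 1, 11, 1, 3 and 13 in the same settings. With 1 merging distance (1444 bases) and 1 shortest peak (361 bases) for both lists the numbers were 1 and 10. The median difference was 0 in the settings tried, which says little where most HOX genes had no peak (any peak at 11 of 39 over the records alone and at 5 by the stricter thresholds). The difference in HOXA, knockout minus control, was -642 bases from first to last record and 0 at both stricter thresholds. In HOXB it was 1028 at a −log10 q of at least 5 and -2481 among the 20000 strongest peaks, the latter between different peaks. In HOXC it was -3987 from first to last record, 0 at both stricter thresholds and -5738 with 1 merging distance. In HOXD it was -4332 from first to last record and -1016 at both stricter thresholds. At a −log10 q of at least 5 both knockout peaks left in the clusters overlapped a control peak (100%), and 2 of 3 control peaks a knockout peak (66.7%). An overlap of at least 50% of the shorter peak changed neither share. The lists' q values need not be equally strict. Depth is unknown.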

Other observations

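Genes known to induce HOX expression ranged from no H3K4me1 peak to long covered stretches. The caudal genes CDX1, CDX2 and CDX4 had no peak in either list. The retinoid receptor genes RXRA (23938 control and 40526 knockout bases) and RARB (22482 and 35483) had the largest excess in the knockout list among these 16 genes, and RXRG had 0 and 1674. ALDH1A2, which encodes an enzyme of retinoic acid synthesis, had 2735 and 0 bases, RARA, a further retinoid receptor gene, had 40429 and 39021, and the transcription factor gene KLF4 had 9771 and 8443. By the rule of 1000 bases 3 were higher in the knockout list (18.8%) and 6 lower (37.5%), against 20.2% and 30.0% of all protein-coding genes. No test was possible for these values, and how they relate to the HOX clusters was not tested.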
